A study of Mus musculus with 4 samples.

Results

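The genes described here lost signal in a mouse club cell population over 3 weeks with doxycycline. They had regained it, at least in part, after 2 more weeks without the drug. They were chosen by their log2 signals on 3 arrays. The Day0 signal had to exceed the 3W+Dox signal by at least 2 log2 units (4-fold) and to reach 6.67, which is the median over all genes and arrays. At least 50% of that log2 loss then had to be undone after withdrawal. Of 23185 named genes, 667 met the conditions on the loss, and 126 of these met the condition on the return. Symbols of well-known axonemal, secretory and detoxifying families, such as Dnah, Cfap, Scgb and Cyp, were left out, which removed 35 genes and left 91. Because the Day0, 3W+Dox and withdrawal arrays chose these genes, their values there describe the set and do not test it. The iPS array played no part in the choice.

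The series holds 4 populations of adult mouse lung origin with 1 array each. Day0 stands for club cells, secretory cells of the airway lining, that had not been cultured. The 3W+Dox population (Club-iPL cells) had spent 3 weeks in doxycycline, a drug commonly used to induce transgenes. The population labelled 3W+Dox+2W-Dox had the same treatment and then 2 weeks of drug-free medium. Below, its array is that of the withdrawn cells, or the one after withdrawal, and the 3W+Dox array is also the one after doxycycline. The iPS population consists of induced pluripotent stem cells derived from club cells (Club-iPS). The labels name no mouse strain, transgene, sort or clone number. No culture kept free of doxycycline throughout was analysed here, so the drug and the time in culture cannot be told apart. With a single array per population there are no replicates to judge a difference against, and no test was possible. Of the defining club cell markers, Scgb1a1 read 13.52 at Day0, 12.62 after doxycycline, 13.04 after withdrawal and 4.18 in iPS cells. Cyp2f2 read 13.83 at Day0, 12.44 after doxycycline, 13.45 after withdrawal and 7.86 in iPS cells. Scgb3a2 fell further, and read 10.21 at Day0, 6.25 after doxycycline, 8.81 after withdrawal and 3.86 in iPS cells. With 64.5% of its loss undone, Scgb3a2 met the conditions on loss and return, and was left out by symbol. The alveolar type 2 marker Sftpc read 13.49 at Day0, 13.39 after doxycycline, 13.54 after withdrawal and 5.50 in iPS cells, and the ciliated cell factor Foxj1 read 11.19 at Day0, 7.99 after doxycycline, 10.45 after withdrawal and 8.38 in iPS cells, so markers of other epithelial cells were bright at Day0 too.

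Motile cilia are the beating hairs that clear mucus from the airway, and multiciliated cells, which club cells can give rise to, carry them. The core of each cilium, the axoneme, is a ring of microtubule doublets around a central pair. Dynein motors drive its beat, radial spokes and nexin links coordinate the motors, and basal bodies made by centriole amplification anchor it. Transcription factors of the RFX family and Foxj1 are known to switch on many of the genes that build these parts.

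Motile cilium genes made up the largest named share of the 91, although the best-known cilium symbols had been left out. Well-known secretory genes that met the conditions on loss and return were left out too. Among these were Bpifb1, Scgb3a1, Scgb3a2, Reg3g, Hp and Retnla, with 51.1 to 95.8% undone. The counts below therefore cover only the symbols that were kept. A list of further motile cilium genes with other symbols had 169 measured genes, of which 47 were members, 51.6% of the set. A list of 50 multiciliogenesis regulators gave 3 members, Deup1, Ccno and Ccna1. Further club cell and airway secretory genes gave 2 of 49 measured, Sec14l3 and Agr2. Lung epithelial transcription factors (56 measured), solute carriers, channels and pumps (709), alveolar type 2 genes (25) and alveolar type 1 genes (19) gave 0. Over all named genes, the rule before symbols were left out took 0.543%. Of the 91 genes, 15 have clone-like or predicted names, and 37 are in none of the 19 lists.

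The rule gave the members similar profiles, and their promoters were searched on both strands for short motifs. RefSeq promoter windows (GRCm38.p6, 250 bases before to 50 after a gene's start) were found for 77 of the 91 genes and for 17452 of all named genes. The letters GTTGCCA, a single arm of the X-box that RFX factors bind, were present in 19 of the 77 genes (24.7%). They were present in 9.57% of 418 lost genes without return and in 4.89% of all named genes. The X-box with both arms, GTTNCC and GGNAAC with 2 bases between them, was present in 3 of the 77 members (Pifo, Ccdc151 and Ccdc180), in 1.2% of the lost genes without return and in 0.573% of all named genes. The searches overlap, with Pifo in both and 21 genes in either. Of the 22 single-arm matches, 18 lay before the start, 11 of them within 100 bases. A forkhead motif, TGTTTAC, was in 10.4% of members, 5.26% of lost genes without return and 3.55% of all named genes. The E2F motif TTCCCGCC was in 1.3% of members and 3.28% of all named genes. CCAAT was in 36.4% of members and 41.9% of all named genes, and TATAAA in 10.4% and 14.1% of the same sets. A match of letters is a description and does not show that a factor binds there. The cilium list holds 47 of the 91 members but only 53 of the 541 lost genes without return. Motif shares were not taken within that list, so return and cilium content cannot be told apart in these shares.

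**Figure D1:**
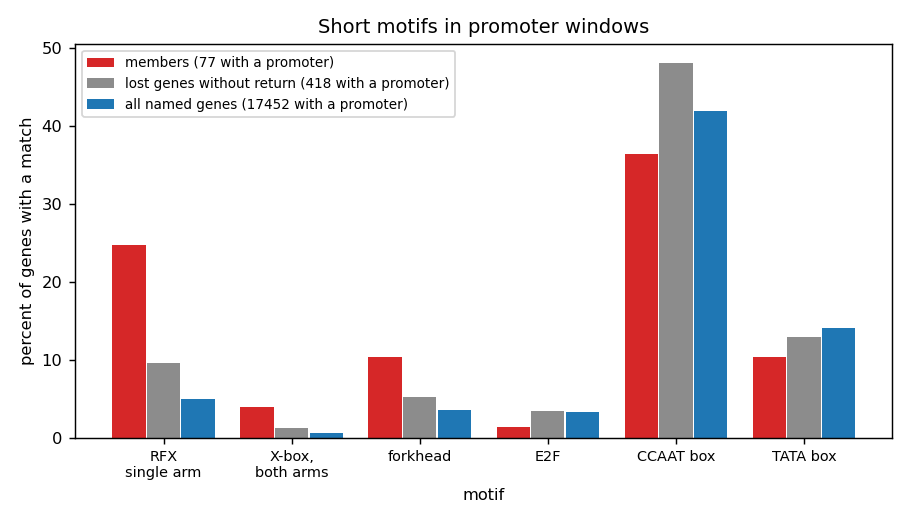
Percent of genes (vertical axis) whose promoter window holds each short motif (horizontal axis), for members (red), lost genes without return (grey) and all named genes (blue). The single RFX arm stands at 24.7% in members and 4.89% in all named genes, while the CCAAT box stands at 36.4% and 41.9%.

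The stretches shown next mark the match in capitals, each 5′ to 3′ on the gene's strand in GRCm38.p6, from RefSeq. Ccdc151 and Pifo are shown for the X-box with both arms, and Deup1 and Ccno for centriole amplification. Lrrc23, a radial spoke gene, and Fam166c, which is in none of the lists, are shown for losses above the set's median. Iqcg and Lrrc34 are shown because they were bright in iPS cells. In Deup1 the arm is on the other strand and reads TGGCAAC.
Ccdc151 (chr9:22002635-22002698, minus strand): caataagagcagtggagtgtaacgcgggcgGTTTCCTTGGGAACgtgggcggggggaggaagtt
Pifo (chr3:106001498-106001547, minus strand): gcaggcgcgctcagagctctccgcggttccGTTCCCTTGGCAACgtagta
Deup1 (chr9:15627890-15627956, minus strand): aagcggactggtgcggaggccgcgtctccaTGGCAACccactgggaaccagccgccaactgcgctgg
Ccno (chr13:112987553-112987619, plus strand): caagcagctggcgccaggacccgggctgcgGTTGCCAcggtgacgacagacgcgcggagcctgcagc
Lrrc23 (chr6:124779730-124779796, minus strand): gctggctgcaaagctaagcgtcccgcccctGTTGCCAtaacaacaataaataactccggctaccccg
Fam166c (chr5:30465992-30466058, plus strand): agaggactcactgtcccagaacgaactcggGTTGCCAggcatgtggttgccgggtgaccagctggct
Iqcg (chr16:33056187-33056235, minus strand): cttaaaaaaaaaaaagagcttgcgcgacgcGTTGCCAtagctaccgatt
Lrrc34 (chr3:30647832-30647898, minus strand): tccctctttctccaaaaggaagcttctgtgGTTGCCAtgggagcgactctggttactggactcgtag

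Across the 91 genes, the median signal was 9.12 at Day0, 5.95 after doxycycline and 7.81 after withdrawal. At 3W+Dox 66 of the 91 lay below 6.67, and after withdrawal 8 did. The difference 3W+Dox minus Day0 had a median of -3.06, beside -0.09 over all named genes. That loss is set by the rule, which 2.88% of all named genes passed. Withdrawn cells exceeded 3W+Dox by a median of 1.81, beside 0.03 over all named genes. In withdrawn cells 37 of the 91 were at least 4-fold above 3W+Dox with a signal at or above 6.67, where 0.302% of all named genes were, and here too the rule used the contrast.

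**Figure D2:**
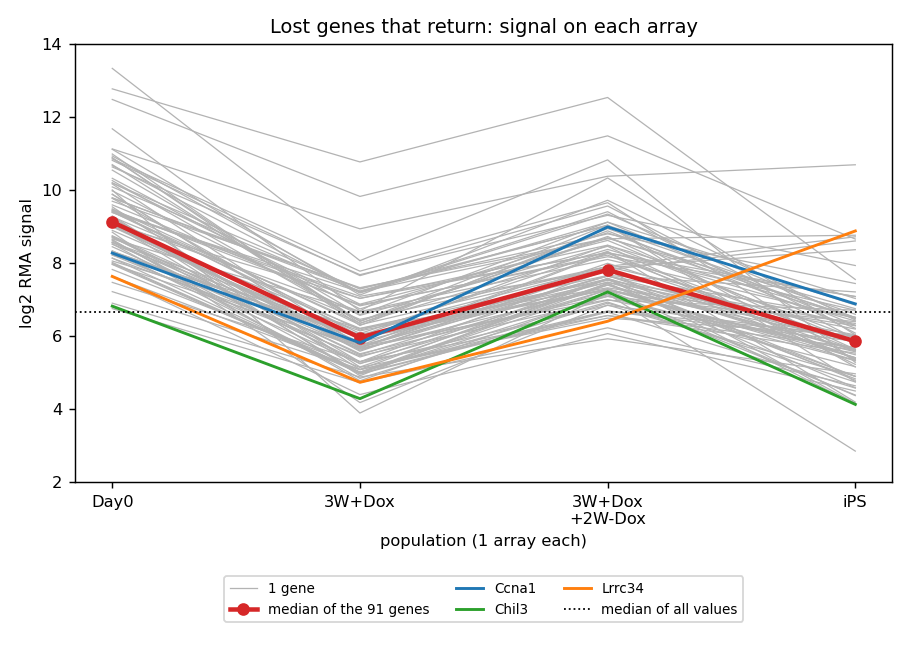
Log2 RMA signal (vertical axis) of each of the 91 genes (grey lines) on the 4 arrays (horizontal axis), with their median in red, Ccna1, Chil3 and Lrrc34 in other colours, and 6.67, the median of all values, dotted. The red line stands at 9.12 at Day0, 5.95 at 3W+Dox, 7.81 after withdrawal and 5.86 in iPS cells.

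The return was partial for nearly all of the set. The share of the log2 loss undone had a median of 58.1% (50.2 to 129%). It lay between 50 and 60% for 55 genes, between 60 and 70% for 25 and between 70 and 80% for 8. It was 88.2% for Cp, 115% for Chil3 and 129% for Ccna1. On the linear scale the median gene stood at 12.0% of its Day0 signal at 3W+Dox and at 41.1% in withdrawn cells (quartiles 34.4 and 49.4%). After withdrawal 22 genes were within 2-fold of Day0, where 82.6% of all named genes were. Another 65 were 2-fold to 4-fold below Day0, and Agr3, Sec14l3, Fam216b and Tmem232 were at least 4-fold below it, as were 1.85% of all named genes. Ccna1 and Chil3 were the only members above their Day0 signal after withdrawal.

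**Figure D3:**
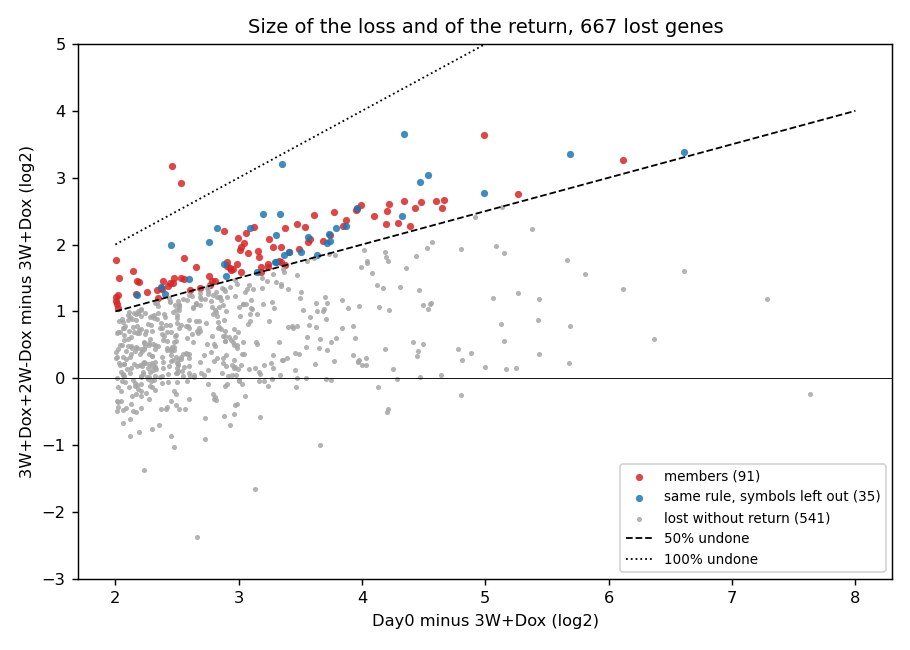
Withdrawn minus 3W+Dox (vertical axis, log2) against the loss, Day0 minus 3W+Dox (horizontal axis, log2), for 667 lost genes, with members in red, genes left out by symbol in blue and lost genes without return in grey. Red and blue points lie on or above the dashed line of 50% undone by construction, and Ccna1 and Chil3 are the members above the dotted line of 100%.

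Genes that assemble and dock dynein motors lost 2.55 to 3.87 log2 units. Lrrc6, a dynein assembly factor, read 8.64 at Day0, 4.77 after doxycycline, 7.13 after withdrawal and 4.38 in iPS cells. Zmynd10, which acts with it, read 9.12 at Day0, 5.58 after doxycycline, 7.85 after withdrawal and 5.59 in iPS cells. Of the proteins that dock the outer dynein arm, Ccdc151 read 7.63 at Day0, 5.08 after doxycycline, 6.56 after withdrawal and 5.69 in iPS cells. Each of these was highest at Day0 and next highest after withdrawal. Efcab1, also of the docking complex, read 9.44 at Day0, 6.07 after doxycycline, 8.32 after withdrawal and 4.19 in iPS cells, and 58.1 to 66.8% of the losses of these 4 genes were undone.

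Ccdc39 and Ccdc40 form the molecular ruler that sets the spacing of dyneins and spokes along the axoneme. Ccdc39 read 9.08 at Day0, 5.74 after doxycycline, 7.47 after withdrawal and 5.61 in iPS cells. Ccdc40 read 8.99 at Day0, 6.21 after doxycycline, 7.66 after withdrawal and 7.21 in iPS cells. Their shares undone were alike, 51.9 and 52.0%, while the iPS signal lay above that at 3W+Dox for Ccdc40 and slightly below it for Ccdc39.

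Dynein chains lost 2.77 to 4.22 log2 units. Dnali1, a light intermediate chain of the inner arm, read 11.11 at Day0, 7.12 after doxycycline, 9.72 after withdrawal and 6.44 in iPS cells. Wdr63, an intermediate chain of an inner arm, read 9.88 at Day0, 5.66 after doxycycline, 8.26 after withdrawal and 5.80 in iPS cells. Wdr78, its partner in that arm, read 9.59 at Day0, 6.83 after doxycycline, 8.21 after withdrawal and 5.62 in iPS cells, and lay just inside the threshold with 50.2% undone. Tctex1d4, of the Tctex family of dynein light chains, was the fourth, with 60.0% undone.

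Radial spoke and nexin link genes lost 2.61 to 3.78 log2 units, with a median of 52.9% undone. Dnajb13, a spoke protein, read 9.77 at Day0, 5.996 after doxycycline, 8.48 after withdrawal and 6.50 in iPS cells. Lrrc23, a protein of the spoke head, read 8.61 at Day0, 5.01 after doxycycline, 7.45 after withdrawal and 4.58 in iPS cells, and had the largest share undone of these 7 genes (67.7%). The spoke genes Nme5 and Maats1 both had 52.6% undone, and the link subunits Fbxl13 and Tcte1 had 55.8 and 50.5%. Iqcg, a subunit of the nexin link, read 9.40 at Day0, 6.16 after doxycycline, 7.87 after withdrawal and 8.36 in iPS cells. It was the only gene of the 7 with a higher signal in iPS cells than in withdrawn cells.

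The central pair was represented by Spef1, Spef2 and Spag17. Spag17, a central pair projection protein, read 8.02 at Day0, 5.01 after doxycycline, 6.93 after withdrawal and 4.74 in iPS cells. Spef2, also of the central apparatus, read 8.89 at Day0, 5.95 after doxycycline, 7.57 after withdrawal and 5.82 in iPS cells, and Spef1, which bundles its microtubules, read 9.69 at Day0, 7.32 after doxycycline, 8.68 after withdrawal and 6.75 in iPS cells. Between 54.9 and 63.9% of their losses were undone.

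Deup1 builds the deuterosome, on which centrioles multiply, and Ccno is a cyclin needed for that step. Deup1 read 8.75 at Day0, 5.69 after doxycycline, 7.86 after withdrawal and 5.38 in iPS cells, with 71.1% undone. Ccno read 8.32 at Day0, 5.94 after doxycycline, 7.27 after withdrawal and 5.89 in iPS cells, with 55.9% undone. At the base of the cilium, Cibar2, which acts with Chibby, had 65.2% undone, and Bbof1, which keeps basal bodies oriented, 50.2%. Ccna1, a cyclin best known from male meiosis, read 8.27 at Day0, 5.81 after doxycycline, 8.99 after withdrawal and 6.88 in iPS cells. It held 164% of its Day0 signal after withdrawal.

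Among genes that act on tubulin, Tppp3, a tubulin-binding protein common in ciliated cells, read 12.48 at Day0, 9.82 after doxycycline, 11.48 after withdrawal and 8.66 in iPS cells. Agbl2, an enzyme that trims glutamates from tubulin tails, read 8.73 at Day0, 5.48 after doxycycline, 7.56 after withdrawal and 4.79 in iPS cells. Its relative Agbl4 was dimmer after withdrawal than the 6.67 median, and read 6.90 at Day0, 4.88 after doxycycline, 5.92 after withdrawal and 4.96 in iPS cells.

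**Figure D4:**
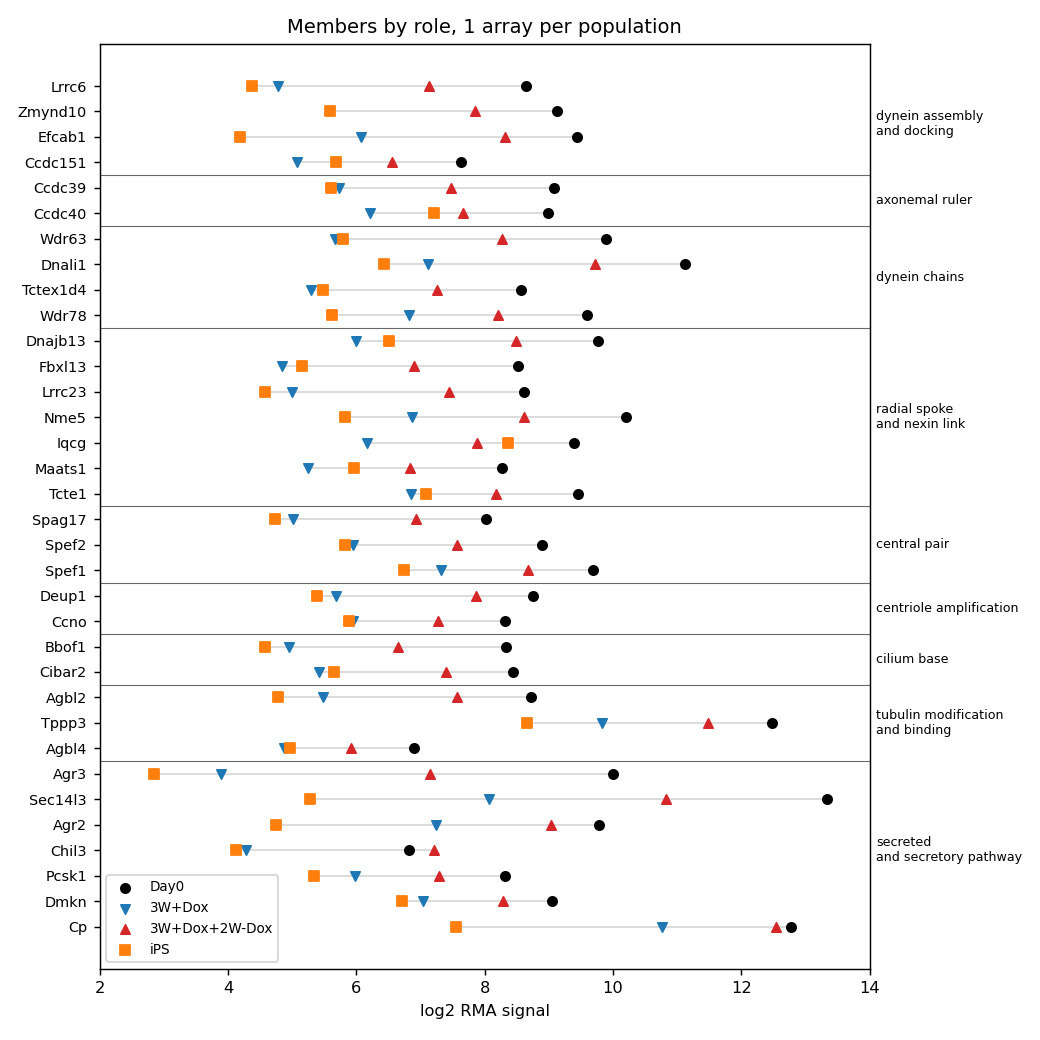
Log2 RMA signal (horizontal axis) of 34 members grouped by role (rows), with Day0 as black circles, 3W+Dox as blue downward triangles, withdrawn cells as red upward triangles and iPS cells as orange squares, which cover the 3W+Dox triangle where the signals coincide (Zmynd10), 1 array each. In every row but that of Chil3 the Day0 circle lies furthest right, and Iqcg is the only gene shown whose iPS square lies right of its withdrawal triangle.

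Further genes with large losses included Spata18, a gene of mitochondrial quality control, which read 11.68 at Day0, 6.69 after doxycycline, 10.33 after withdrawal and 6.03 in iPS cells. Its difference between withdrawn cells and 3W+Dox, 3.64, was the largest of the set. Ttc29, an axonemal protein known from sperm flagella, read 8.84 at Day0, 4.18 after doxycycline, 6.85 after withdrawal and 4.90 in iPS cells. Nme9, of the nucleoside diphosphate kinase family, read 10.16 at Day0, 5.74 after doxycycline, 8.29 after withdrawal and 5.35 in iPS cells. Fam216b, Fam183b and Tmem212 had losses of 4.64, 4.60 and 4.47 log2 units, of which 54.7, 57.7 and 58.9% were undone. Nek10, a kinase of motile cilia, and Cdhr4, a cadherin-related protein, came closer to Day0, with 74.1 and 76.4% undone.

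Secreted proteins and proteins of the secretory pathway formed a smaller and more uneven group of 7. Agr3, a disulfide isomerase, read 10.001 at Day0, 3.89 after doxycycline, 7.15 after withdrawal and 2.85 in iPS cells. Its loss was the largest of the set, and withdrawn cells held 13.9% of the Day0 signal. Agr2, a related isomerase that helps mucins fold, read 9.79 at Day0, 7.23 after doxycycline, 9.04 after withdrawal and 4.75 in iPS cells, and stood at 59.6% of Day0 after withdrawal. Sec14l3, a lipid-binding protein of airway epithelium, read 13.33 at Day0, 8.06 after doxycycline, 10.83 after withdrawal and 5.27 in iPS cells, and stood at 17.6%.

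Cp, which encodes the copper-carrying oxidase ceruloplasmin, read 12.77 at Day0, 10.77 after doxycycline, 12.53 after withdrawal and 7.55 in iPS cells. Its loss was the smallest of the set, and withdrawn cells held 84.9% of the Day0 signal. Chil3, a chitinase-like protein of macrophages and airway epithelium, read 6.82 at Day0, 4.28 after doxycycline, 7.21 after withdrawal and 4.13 in iPS cells. On the list of 20 macrophage and myeloid genes, 20 were at or above 6.67 at 3W+Dox and 19 after withdrawal, against 6 at Day0. Their summed linear signal was 7245 at Day0, 21105 at 3W+Dox and 29300 after withdrawal, and their part in the Chil3 signal was not tested. Pcsk1, a prohormone convertase, and Dmkn, a secreted protein first known from skin, had 56.2 and 61.9% undone.

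On the iPS array most members were dim. There 19 of the 91 (20.9%) lay at or above 6.67, against 36.8% of the 541 lost genes without return and 51.1% of all named genes, and the medians of these sets were 5.86, 6.13 and 6.75. In iPS cells 75 of the 91 (82.4%) were at least 4-fold below Day0, where 5.9% of all named genes were. The rule picked genes that were bright at Day0, so this count shares the Day0 array with the choice of members. Among lost genes without return, picked by the same Day0 condition, 77.8% were 4-fold below. The iPS signal was within 2-fold of 3W+Dox for 68 members (74.7%), near the 73.8% of all named genes. The median of iPS minus 3W+Dox was -0.09 in members and 0.06 over all named genes.

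**Figure D5:**
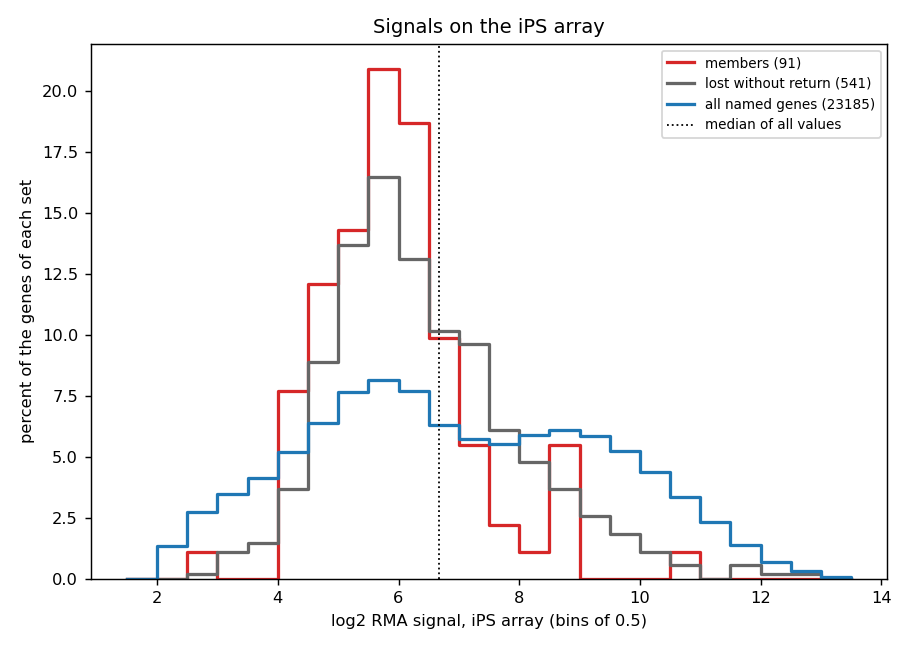
Percent of the genes of each set (vertical axis) by log2 RMA signal on the iPS array (horizontal axis, bins of 0.5), for members (red), lost genes without return (grey) and all named genes (blue), with 6.67, the median of all values, dotted. Of the members 20.9% lie at or right of the dotted line, against 51.1% of all named genes.

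At least 2-fold higher in iPS cells than at 3W+Dox, with an iPS signal at or above 6.67, were 8 members (8.79%), near the 11.4% of all named genes. They were Lrrc34, Syne4, Iqcg, Firre, 1700007K13Rik, Pdlim3, Ccdc60 and Ccna1. Lrrc34, a leucine-rich repeat gene, read 7.63 at Day0, 4.73 after doxycycline, 6.40 after withdrawal and 8.88 in iPS cells, and was the only member above Day0 in iPS cells. Firre, a long noncoding RNA gene, read 8.66 at Day0, 6.66 after doxycycline, 7.81 after withdrawal and 8.60 in iPS cells. Syne4, which links the nucleus to kinesin, read 9.26 at Day0, 6.45 after doxycycline, 7.90 after withdrawal and 8.72 in iPS cells. At least 2-fold lower in iPS cells than at 3W+Dox, with a 3W+Dox signal at or above 6.67, were 10 members (11.0%), beside 12.4% of all named genes. Cp (-3.22), Sec14l3 (-2.79) and Agr2 (-2.49) were among them. All 7 secretory genes were at least 4-fold below Day0 in iPS cells, beside 82.4% of all members and 5.9% of all named genes.

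The limit of 50% undone runs through the cilium genes. Of the 169 measured on the list of further motile cilium genes, 154 reached 6.67 at Day0 and 100 of these were at least 4-fold lower at 3W+Dox. Of the 100, 47 were members and 53 were not. In the 53 a median of 41.1% of the loss was undone (-0.67 to 49.8%), with 28 between 40 and 50% and 5 under 25%, and 52 of the 53 were brighter in withdrawn cells than at 3W+Dox. Nearest to the limit were Rgs22, Vwa3a and Mapk15, with 49.8, 49.6 and 49.3% undone. The other 54 were less than 4-fold lower or higher at 3W+Dox, with a median of -1.28. At least 2-fold higher in withdrawn cells than at 3W+Dox, with a withdrawn signal at or above 6.67, were 62 of 169 (36.7%), where 1.45% of all named genes were. All 47 members on the list were at least 2-fold higher, as the rule requires, and 40 of them reached 6.67 after withdrawal and are among the 62.

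The list summed on the linear scale to 93722 at Day0, 20124 after doxycycline, 38897 after withdrawal and 21913 in iPS cells, so withdrawn cells held 41.5% of the Day0 sum and 3W+Dox 21.5%. These are bulk arrays, in which fewer ciliated cells and less cilium RNA per cell cannot be told apart. The cell type lists differed between these arrays too. Of the fibroblast genes, 24 of 25 were at or above 6.67 at 3W+Dox and after withdrawal, against 9 at Day0. Their sum was 4216 at Day0, 112814 at 3W+Dox and 115214 after withdrawal. The 17 goblet and mucin genes summed to 7994 at Day0, 19101 at 3W+Dox and 4710 after withdrawal. The goblet and mucin sum moved opposite to that of the cilium list at each step, while the fibroblast sum rose at both. At the first step the median goblet and mucin gene did not follow the sum of its list. The median of 3W+Dox minus Day0 was -0.26 for the goblet and mucin list and -2.24 for the cilium list. Of the defining goblet markers, Muc5ac, an airway mucin, read 8.27 at Day0, 13.002 after doxycycline, 8.80 after withdrawal and 4.94 in iPS cells. Clca1, a secreted goblet cell protein, read 9.15 at Day0, 12.02 after doxycycline, 5.49 after withdrawal and 6.09 in iPS cells. The marker Spdef went the other way, and read 8.29 at Day0, 6.79 after doxycycline, 7.28 after withdrawal and 6.92 in iPS cells. Agr2, a member on the goblet and mucin list, also fell after doxycycline and rose after withdrawal. MHC class II genes, which antigen-presenting cells express, summed to 9610 at Day0, 7512 at 3W+Dox and 14537 after withdrawal, with 4 of 10 at least 2-fold higher in withdrawn cells than at 3W+Dox. The median of withdrawn minus 3W+Dox was 0.91 for the cilium list, 0.08 for fibroblast, -0.43 for goblet and mucin, 0.49 for macrophage and myeloid and 0.94 for MHC class II genes. The part of these cell types in the cilium values was not tested.

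Factors known to act upstream of the cilium genes differed widely in the share undone. Gmnc, which starts the multiciliated programme, read 10.28 at Day0, 5.22 after doxycycline, 6.42 after withdrawal and 5.43 in iPS cells, with 23.8% undone. Myb, a transcription factor active early in it, read 10.34 at Day0, 7.48 after doxycycline, 8.65 after withdrawal and 8.99 in iPS cells, with 40.8% undone. Mcidas, a partner of Gmnc, read 8.16 at Day0, 6.76 after doxycycline, 7.87 after withdrawal and 6.75 in iPS cells, and its loss of 1.40 log2 units, of which 79.5% was undone, missed the threshold. The losses of Ccdc78 and Cdc20b, known from centriole amplification and maturation, were also under the threshold, with 58.0 and 105% undone. Rfx2 and Rfx3 had losses of 1.69 and 1.64, with 30.6 and 29.9% undone. Foxj1, excluded by symbol, met the conditions on loss and return. Of the 50 regulators measured, 5 were at least 4-fold lower at 3W+Dox, and 3 of these were members. Over all named genes 2.88% were lost in this way, and 18.9% of those met the rule before symbols were left out.

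Of the 49 club cell and airway secretory genes, 15 were at least 4-fold lower at 3W+Dox, and 2 of those 15 were members. Over all lost genes, 18.9% met the rule before symbols were left out. That share counts left-out secretory genes such as Scgb3a2, which this list does not hold, so the shares are not alike. Sult1d1, a sulfotransferase, read 10.78 at Day0, 3.15 after doxycycline, 2.91 after withdrawal and 3.002 in iPS cells. Slc23a1, a vitamin C transporter, read 11.68 at Day0, 5.99 after doxycycline, 6.78 after withdrawal and 7.02 in iPS cells. Neither came near its Day0 signal after withdrawal. All 40 lost solute carriers, channels and pumps and all 9 lost lung epithelial transcription factors were without return. So were 541 of all 667 lost genes. The medians of these lists were 12.2 and 3.83% undone. Over the 541, each under 50% undone by the rule, the median was 18.7%. It was 41.1% for the 53 lost cilium genes without return, and 49.2% for all 100 lost cilium genes, members included.

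Near the limits of the rule, Cp, Firre and Armh1 had the smallest losses among members, 2.00 to 2.01, and Prr29, Lrrc71 and Cntd1 lay just outside with 1.98 to 1.99. Bbof1, Wdr78 and BC051019 had 50.2% undone, and Fam161a and Cckar lay outside, with 49.96 and 49.94%. Nek10, Chil3 and Agbl4 had the lowest Day0 signals, 6.75, 6.82 and 6.90, and no gene that met the other conditions was below 6.67 at Day0.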

How the data were processed

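RNA of 4 mouse populations was measured on 4 Affymetrix arrays, 1 per population, grouped by sample title. The authors deposited log2 signals made with RMA, the affy package and R 3.0.2, per the submitters' processing notes. That the scale is log2 follows from the range of the values. The chip annotation version is not given in the sources used here. Of 25206 probe sets, 23185 carry 1 gene symbol in the platform annotation and 2021 are unnamed here and were left out. Depth does not apply to arrays. The rule was applied to the deposited values with Python 3.11.15 and pandas 2.3.3, with no new normalization. Its code was checked on simulated data with planted losses, which does not test the members found here. With 1 array per population no test was run, and lists are described by counts and medians beside all named genes.

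Members, the 19 lists and the motifs were chosen with earlier results of these data known. Named genes were drawn from a pool, and not every gene in it is named. Among members without clone-like names, the pool held the 20 largest losses, the 15 largest differences after withdrawal and the 10 furthest above Day0 after withdrawal. It also held the 10 highest and the 10 furthest below Day0 in iPS cells and up to 8 per list. Up to 3 genes on each side of a threshold and the defining markers completed it. The role groups and all other genes named were chosen after their values were seen. Promoter sequences are from RefSeq (GRCm38.p6), matched by gene ID. Alternatives changed the loss, the share undone, the brightness filter, the scaling, a floor and the left-out symbols.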

Additional observations from a re-analysis of the deposited data

How the results depend on the processing

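The scaling choices kept most of the set. There were 85 genes after a second quantile normalization (81 shared, 10 not kept). With each array centred on its bright genes there were 99 (85 shared, 6 not kept). Other settings gave 84 with dim values raised to the 25th percentile and 91 with no filter on dim genes. Keeping the left-out symbols in added 35 genes, for 126. In all, 29 of 50 recomputed counts stayed within 1.5 times and 21 did not. Every one of the 21 followed from a wider or narrower rule. For a loss of at least 1 log2 unit, members numbered 180, with 110 within 2-fold of Day0 and 24 at least 2-fold higher in iPS cells than at 3W+Dox. For a loss of at least 3, these numbered 50, 2 and 1, with 49 at least 4-fold lower in iPS cells than at Day0 and 27 in the cilium list. For Day0 at or above the 75th percentile they numbered 55, 9 and 4, with 30 in the cilium list. With 25% undone, members numbered 273, with 213 at least 4-fold lower in iPS cells, 31 higher than at 3W+Dox and 95 in the cilium list. With 75% undone, 5 members were left, all 5 within 2-fold of Day0, with 3, 1 and 2 in those counts. No paired analysis was possible because each population had 1 array. Signals near background make folds inexact, and differences between arrays cannot be separated from the spread between cultures.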

Other observations

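All 91 genes were found in the RefSeq gene table and lay on 20 chromosomes, with at most 13 on any of them. Only 2 pairs of members were next to each other among the named genes. Agr3 and Agr2, on chromosome 12, differed in size of loss (6.11 and 2.55 log2 units) and in share undone (53.4 and 70.7%). The other pair was Cdkl4, a cyclin-dependent kinase-like gene, and C230072F16Rik, on chromosome 17. Cdkl4 read 9.29 at Day0, 5.08 after doxycycline, 7.58 after withdrawal and 5.41 in iPS cells. C230072F16Rik read 8.71 at Day0, 5.24 after doxycycline, 7.55 after withdrawal and 4.89 in iPS cells.

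The median of 3W+Dox minus Day0 was -3.06 in the 91 genes and -3.36 in the 35 genes left out by symbol, and the median share undone was 58.1% in the 91 and 57.6% in the 35. At least 4-fold below Day0 in iPS cells were 75 of the 91 and 34 of the 35. Among unnamed probe sets, 3 of 2021 met the same conditions.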
